A study of Mus musculus with 64 samples.

Results

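The CD300 receptor family was followed in microglia, the resident macrophages of the retina, before and after an intravitreal injection of adeno-associated virus. The 6 members were Cd300a, Cd300c2, Cd300e, Cd300lb, Cd300ld and Cd300lf, taken by gene symbol from the 25239 genes of the count table after the authors' batch correction. The family was chosen by the measured level of Cd300lf, which stood above naive at day 28, so the contrast of day 28 with naive is described here and not tested. The contrast of day 12 with naive shares its naive libraries, and that of day 28 with day 12 shares its day 28 libraries. All 6 symbols were in the table, and 5 passed the filter on low counts in the fit of all libraries. Cd300e did not pass it.

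The mice were Cx3cr1CreER:R26-tdTomato +/- animals on a C57BL/6J background, in which tamoxifen eye drops marked cells that use the Cx3cr1 gene, and libraries of 600 sorted tdTomato-high cells were made from single retinas. The reporter marks whichever cells had Cx3cr1 active when tamoxifen was given, so the sort does not by itself separate microglia from other long-lived macrophages. Females and males of 3, 9 and 18 months were either naive, that is never injected, or were collected at day 12 or day 28 after AAV2 null, a virus without transgene, at 1E10 genome copies per eye. According to the paper, the vector also carried an oligonucleotide sequence that inhibits TLR9, a sensor of viral DNA. No vehicle-injected retinas were among the libraries, so the injection and the virus cannot be told apart. Here 62 libraries entered the comparisons, 19 naive, 22 from day 12 and 21 from day 28, in 18 groups of 2 to 4. They held 1468478 to 9836173 counts each (median 4188992), and levels are given as CPM, the counts scaled to the total of the library. At these depths 3 counts, the limit that a count of 0 allows, corresponded to 0.305 to 2.04 CPM, a limit that covers counting error only.

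A few libraries needed care. The library labelled 18m female day 28 replicate 1 had no Xist counts and 388 CPM of 4 Y-linked genes, and it was left out. The library labelled 9m male day 28 replicate 1 had 255 CPM of Xist and no Y-linked counts, and it was in the uncorrected table only. A library titled as 18m male day 28 replicate 4 carried a day 12 label in another field and was kept at day 28, and results are also given without it. In bulk samples such as these, fewer cells of a type and less RNA per cell cannot be told apart. All 10 listed microglial markers were detected on each day, and the sort could in principle hold other myeloid cells, whose markers are given beside the results.

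CD300 proteins are membrane receptors of myeloid cells with an immunoglobulin-like domain that binds lipids, among them phosphatidylserine, phosphatidylethanolamine and ceramide, which cells expose when they die or are activated. Cd300a and Cd300lf encode inhibitory receptors, whose long tails recruit the phosphatases Ptpn6 and Ptpn11. Cd300c2, Cd300lb, Cd300ld and Cd300e encode receptors with short tails that signal through the adaptors Tyrobp, Fcer1g or Hcst. Microglia are the cells that clear dying neurons in the retina, and receptors for exposed lipids take part in that task.

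The members lie together on chromosome 11 (GRCm38), in a cluster that spans 244 kb from 114890041 to 115133992. Cd300a (114890041 to 114904654) is at one end on the plus strand, and the other 5 members are on the minus strand, with Cd300lf (115116214 to 115133992) at the far end. Cd300lf overlaps Rab37, which is on the other strand, without shared exon bases. The library kit does not mark strand, and Rab37 itself had 0 to 6.6 CPM. Reads between near copies were a small concern for the members, since 1.12% of the 75-base words of Cd300lf transcripts also occurred in Cd300ld, and 1.37% of those of Cd300a also occurred in Cd300c2. From the other side of each pair the shares were 2.33% for Cd300ld and 5.19% for Cd300c2. The copies Cd300ld3, Cd300ld4 and Cd300ld5, which are no members, shared 81.5% to 100% of theirs.

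The promoters of the 3 well-measured members are shown because these members differed in their change at day 12 although they share one cluster. They are RefSeq sequences of GRCm38.p6, from 250 bases before to 50 bases after the annotated start, in the gene's own direction. For all 3, the RefSeq bounds of the gene begin further upstream, at 115135372 for Cd300lf, 114889152 for Cd300a and 115004261 for Cd300c2. Windows at those upstream starts are not shown, so the matches hold for the start used here only. Matches to 4 motifs, searched on both strands, are in capitals. The motifs were a STAT site of the GAS type (TTCNNNGAA), the half-site pair of the interferon-stimulated response element (GAAA, any 2 bases, GAAA), a PU.1 core (GAGGAAGT) and an AP-1 site (TGANTCA), which were present in 8.3%, 3.44%, 3.2% and 7.81% of 32851 promoters of the same length.
Cd300lf, chr11:115133943-115134242, minus strand: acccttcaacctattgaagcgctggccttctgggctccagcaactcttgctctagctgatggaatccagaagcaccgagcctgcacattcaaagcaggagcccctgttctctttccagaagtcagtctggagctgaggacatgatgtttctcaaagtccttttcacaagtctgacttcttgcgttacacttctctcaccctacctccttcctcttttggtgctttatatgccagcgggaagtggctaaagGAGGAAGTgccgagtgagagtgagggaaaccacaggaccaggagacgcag
Cd300a, chr11:114889791-114890090, plus strand: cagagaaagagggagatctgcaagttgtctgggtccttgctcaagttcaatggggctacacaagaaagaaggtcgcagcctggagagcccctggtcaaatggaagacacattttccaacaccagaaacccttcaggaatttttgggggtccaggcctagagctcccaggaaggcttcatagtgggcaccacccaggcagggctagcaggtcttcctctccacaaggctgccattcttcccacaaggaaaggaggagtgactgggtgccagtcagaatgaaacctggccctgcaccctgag
Cd300c2, chr11:115001831-115002130, minus strand: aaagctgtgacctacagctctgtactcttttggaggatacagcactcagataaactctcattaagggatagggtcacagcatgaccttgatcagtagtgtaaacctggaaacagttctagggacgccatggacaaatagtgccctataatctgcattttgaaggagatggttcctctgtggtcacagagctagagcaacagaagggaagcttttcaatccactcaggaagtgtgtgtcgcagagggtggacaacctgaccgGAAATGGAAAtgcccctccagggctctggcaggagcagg
The Cd300lf window held a PU.1 core that begins at the annotated start, the Cd300c2 window held an interferon-type half-site pair 11 bases after the start, and the Cd300a window held none of the 4. The PU.1 core was also in the windows of Cd300ld, Cd300ld3, Cd300ld4 and Cd300ld5, so it was not particular to Cd300lf. The half-site pair was also in the window of Cd300c. Matches did not overlap each other. A match describes letters and not a bound site.

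**Figure D1:**
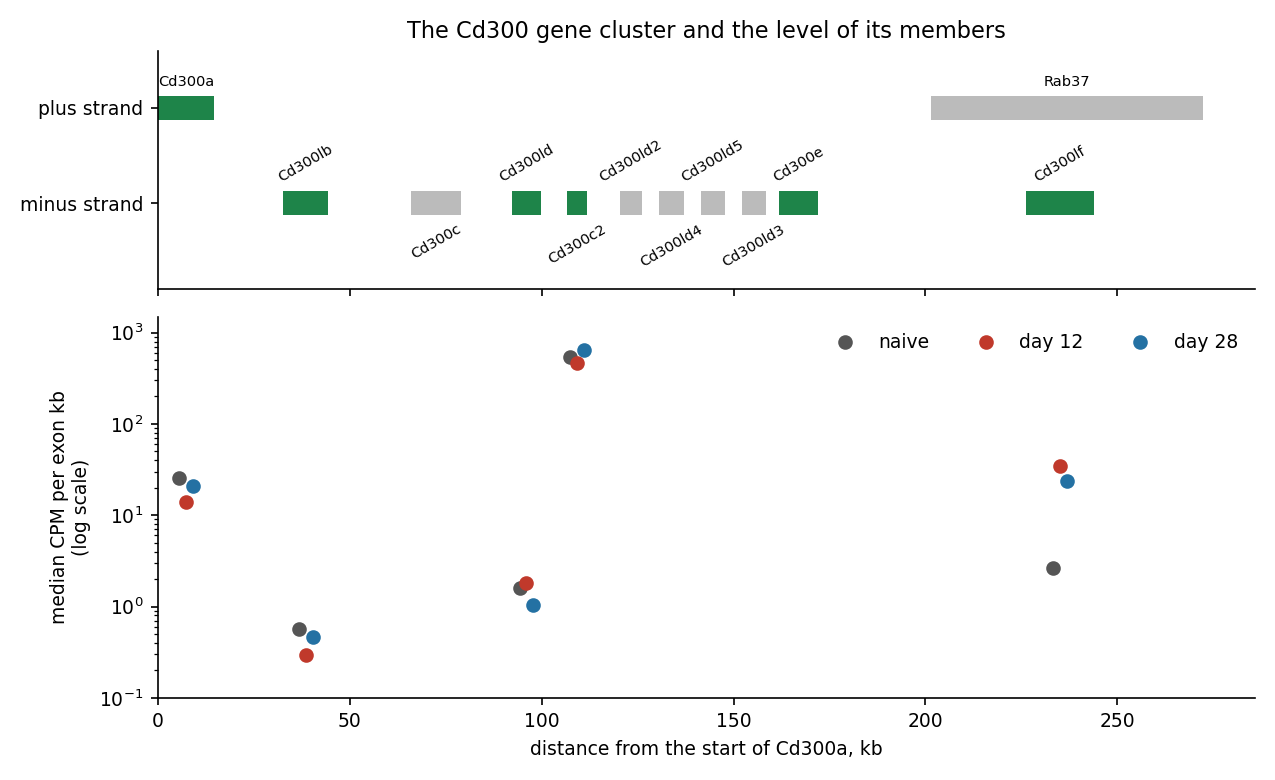
The upper panel maps the Cd300 genes and Rab37 by distance in kb from the start of Cd300a, with members in green and other genes in grey. The lower panel gives each member's median CPM per kb of exon on a log axis in naive (grey), day 12 (red) and day 28 (blue) libraries. Cd300c2 is the highest on every day, Cd300lf moves from 2.65 to 35 between naive and day 12, and Cd300e is not drawn since its median was 0.

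Per kb of exon, Cd300c2 was the most abundant member on every day, with a median of 535 CPM per kb in naive, 470 at day 12 and 649 at day 28. Cd300a was next in naive, at a median of 25.4 CPM per kb, and Cd300lf stood at 2.65. At day 12 the order of these 2 was turned, with Cd300lf at a median of 35 CPM per kb and Cd300a at 13.9. Cd300lf was above Cd300a per kb in 0 of 19 naive libraries, 20 of 22 day 12 libraries and 12 of 21 day 28 libraries. Cd300ld (1.03 to 1.79 CPM per kb as daily medians) and Cd300lb (0.291 to 0.575) were far lower, and Cd300e was at a median of 0 on each day. Of the family's summed counts, Cd300lf took a median of 1.4% in naive, 21.3% at day 12 and 11.2% at day 28.

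Cd300lf, the inhibitory receptor for ceramide and phosphatidylserine that also serves murine norovirus as its entry receptor, rose sharply at day 12. In 3-month females it was at 13.6, 18.8, 13.7 and 23.8 CPM in naive libraries, 179.7, 158, 134 and 162 CPM at day 12, and 93.3, 134, 122 and 129 CPM at day 28. In 3-month males it was at 7.91, 11.2 and 18.5 CPM in naive, 164, 139.6, 166 and 181 CPM at day 12, and 123, 112 and 134 CPM at day 28. Every injected library of this age was above every naive one, and the day 28 libraries were below the day 12 libraries of the same sex.

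At 9 months the naive females had the lowest mean of all 18 groups. Their libraries were at 2.08, 6.18 and 9.48 CPM, against 260.4, 255 and 331 CPM at day 12 and 79.8, 127, 159 and 131 CPM at day 28. Males of 9 months were at 8.39 and 21.3 CPM in naive, 309.7, 123, 293 and 185 CPM at day 12, and 107, 99.4 and 103 CPM at day 28. The 5 highest levels of the series were in 9-month libraries of day 12, and again no day 28 library of a sex reached the lowest day 12 library of that sex.

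In 18-month females the naive libraries of Cd300lf were at 46.2, 23.4 and 13.9 CPM, those of day 12 at 95.1, 53.6, 251 and 164 CPM, and those of day 28 at 112, 146 and 133 CPM. In 18-month males the naive libraries were at 11.5, 20.1, 9.4 and 3.91 CPM, those of day 12 at 189, 251 and 181 CPM, and those of day 28 at 117, 126, 139.6 and 91.1 CPM, the last being the library with 2 day labels. The day 12 and day 28 ranges overlapped in 18-month females and in no other sex and age.

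**Figure D2:**
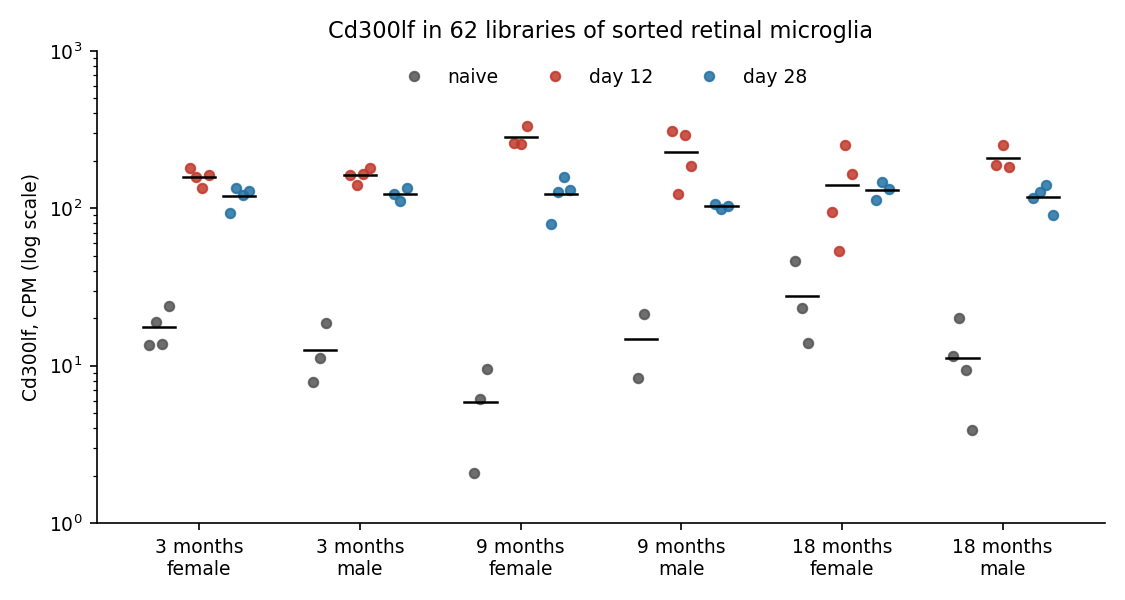
Cd300lf in CPM on a log axis, with a point for each of the 62 libraries and a bar at each group mean, for naive (grey), day 12 (red) and day 28 (blue) libraries of each age and sex. Naive libraries reach at most 46.2 CPM and every injected library is above that.

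Across all ages and sexes, Cd300lf ranged from 2.08 to 46.2 CPM in naive (median 13.6), from 53.6 to 331 CPM at day 12 (median 180.3) and from 79.8 to 159 CPM at day 28 (median 123). All 22 day 12 libraries and all 21 day 28 libraries were above the highest naive library. Averaged over sex and age, the change from naive to day 12 was 3.93 ± 0.204 on the log2 scale (SE, a 15.3-fold rise; edgeR quasi-likelihood test, adjusted p = 3.19e-22), the smallest p of 13584 genes. In size, 208 genes had a larger log2 change. Of all genes, 20.2% were called higher and 15.8% lower in this comparison, and of the 5 members tested 1 was higher (Cd300lf) and 2 were lower (Cd300a and Cd300lb).

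When each sex and age was fitted apart and tested against a change of 1 on the log2 scale, Cd300lf was called higher at day 12 in 5 of 6. The log2 changes were 3.33 ± 0.253 (SE) in 3-month females (1.67% of genes called higher), 3.85 ± 0.261 in 3-month males (2.77%), 5.52 ± 0.491 in 9-month females (1.77%), 4.07 ± 0.532 in 9-month males (0.774%) and 4.33 ± 0.392 in 18-month males (2.86%). Among these the edgeR adjusted p was at most 0.00351, in 9-month males, where it became 0.0855 without 9m male naive replicate 1, which left 1 naive library in the arm, taken to vary like the other groups. In 18-month females the change was 2.62 ± 0.579 (adjusted p = 0.644), where 0% of 11159 genes were called. There 2 of 5 members were under an unadjusted p of 0.05, as were 485 of the 11159 genes. With all libraries in one fit, the same contrast in 18-month females was 2.60 on the log2 scale with an adjusted p of 0.0189. No other member was called at day 12 in any sex and age fitted apart.

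After day 12, Cd300lf came down. Between day 12 and day 28 it fell by 0.67 ± 0.159 on the log2 scale, a 1.59-fold decrease (edgeR adjusted p = 0.00137), and in 5 of 6 sexes and ages every day 28 library was below every day 12 library. In this comparison 7.92% of genes were called higher and 10.3% lower, and of the 5 members tested 3 were higher (Cd300a, Cd300c2 and Cd300lb) and 1 was lower (Cd300lf). The decrease was 0.65 without the library with 2 day labels (adjusted p = 0.00219), and among females alone it missed the threshold (-0.54, adjusted p = 0.177). At day 28 the level relative to naive was 3.26 ± 0.195 on the log2 scale, and 3.29 without the library with 2 day labels. By sex and age that log2 difference ran from 2.34 in 18-month females to 4.5 in 9-month females. Put as a share, Cd300lf kept 82.9% of its log2 change at day 28. The median share over the 1335 genes called higher at day 12 with an estimated rise of at least 2-fold was 54.7%, and 222 of them kept a higher share. These day 28 values chose the family and are given as description only.

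**Figure D3:**
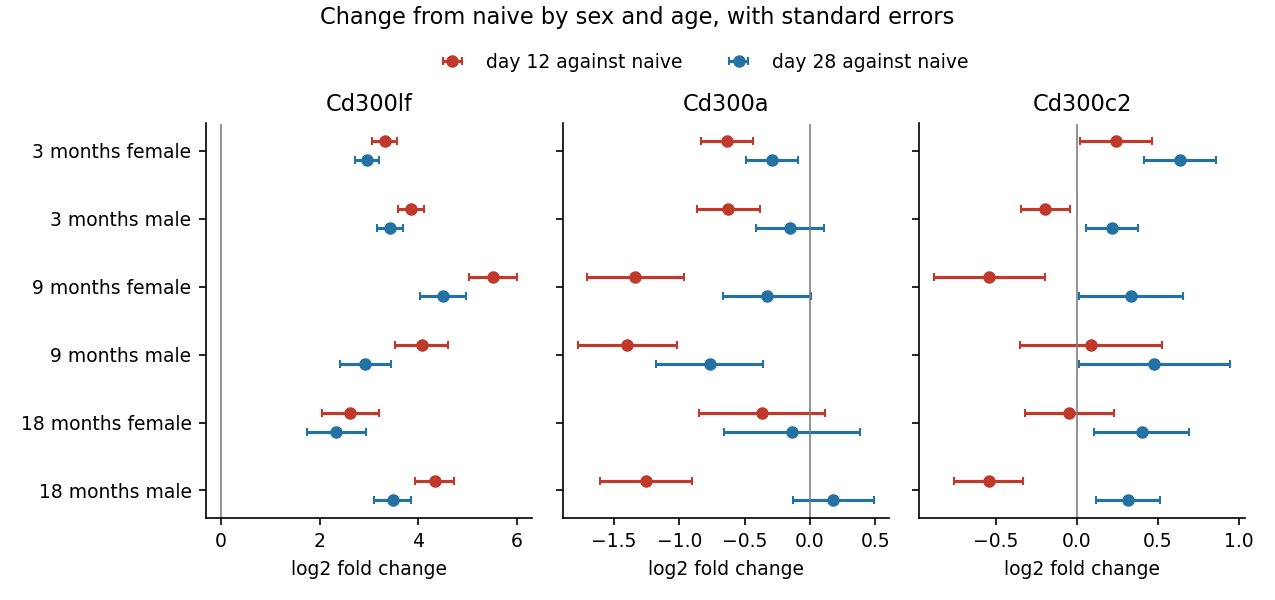
Log2 fold change from naive at day 12 (red) and day 28 (blue) for Cd300lf, Cd300a and Cd300c2 in each sex and age fitted apart, with horizontal bars for the standard error. Both comparisons share the naive libraries, and the horizontal scales differ between panels. Cd300lf lies right of 0 throughout, Cd300a lies left of 0 in every group at day 12, and Cd300c2 lies on both sides at day 12 and right of 0 at day 28.

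The 18 group means of Cd300lf ordered themselves by day. The 6 naive means were the lowest, from 5.91 ± 3.71 CPM (SD, n = 3) in 9-month females to 27.8 ± 16.6 CPM (n = 3) in 18-month females. The 6 day 28 means followed, from 103 ± 3.61 CPM (n = 3) in 9-month males to 130.2 ± 16.9 CPM (n = 3) in 18-month females. The 6 day 12 means were the highest, from 141 ± 86.6 CPM (n = 4) in 18-month females to 282 ± 42.6 CPM (n = 3) in 9-month females. For Cd300a 5 of the 6 highest means were naive and for Cd300c2 5 were of day 28, with 0 of 17 neighbouring pairs apart in either. Of the 17 neighbouring pairs for Cd300lf, only 2 had ranges that did not overlap, 18-month naive females with 9-month males at day 28, and 3-month with 18-month males at day 12. The spread between libraries of a group, as SD over mean, was 28% to 62.7% over the 6 naive groups, 10.5% to 61.4% at day 12 and 3.51% to 26.4% at day 28. The highest day 12 value was that of 18-month females.

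Cd300a, the other inhibitory receptor, moved opposite to Cd300lf. In 3-month females its libraries were at 143, 120.3, 140.1 and 211 CPM in naive, 98.9, 80.1, 101 and 81.3 CPM at day 12, and 117, 112, 112 and 100.003 CPM at day 28. In 3-month males they were at 134, 113 and 91.8 CPM in naive, 83.5, 40.7, 68.2 and 82.3 CPM at day 12, and 79.7, 101 and 107 CPM at day 28. In both sexes of this age every day 12 library was below every naive library, while day 28 overlapped day 12 in both and naive in males.

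In 9-month females Cd300a was at 162, 113 and 98.5 CPM in naive, 59.7, 31.7 and 53.6 CPM at day 12, and 73.8, 100.2, 64.7 and 125 CPM at day 28. In 9-month males it was at 111 and 215 CPM in naive, 63.2, 89.1, 37.3 and 40.7 CPM at day 12, and 98.2, 65.6 and 96.9 CPM at day 28. The naive and day 12 libraries were again apart in both sexes.

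At 18 months females were at 159, 98.5 and 109 CPM in naive, 157, 127, 43.1 and 22.4 CPM at day 12, and 117, 81.1 and 114 CPM at day 28. Males were at 131, 125, 117 and 97.5 CPM in naive, 19.9, 37.5 and 83 CPM at day 12, and 97, 116, 96.6 and 183 CPM at day 28, the last being the library with 2 day labels. Naive and day 12 overlapped in these females and not in these males.

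Averaged over sex and age, Cd300a fell by 0.95 ± 0.152 on the log2 scale from naive to day 12, a 1.93-fold decrease (edgeR adjusted p = 8.4e-07), with 18 of 22 day 12 libraries below the lowest naive one. The decrease was smaller than 2-fold, and a test against a 2-fold change did not call it (adjusted p = 1). From day 12 to day 28 Cd300a rose by 0.69 ± 0.148 (adjusted p = 0.000423), and by 0.65 without the library with 2 day labels. Within the first collection day alone this rise was 0.51 with an adjusted p of 0.137, and among females alone 0.53 with an adjusted p of 0.149. Relative to naive the level at day 28 was -0.26 ± 0.153 on the log2 scale, given without a test.

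Cd300c2, an activating receptor and the most abundant member, was the steadiest of the 3 well-measured members at day 12. In 3-month females it was at 642, 683, 813 and 468 CPM in naive, 737, 667, 604 and 800.0 CPM at day 12, and 883, 949, 859 and 901 CPM at day 28. In 3-month males it was at 849.9, 740.1 and 679.5 CPM in naive, 659.8, 594, 553 and 676 CPM at day 12, and 828, 822 and 845 CPM at day 28. Day 28 libraries were above all day 12 libraries in both sexes of this age.

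In 9-month females Cd300c2 was at 654, 794 and 633 CPM in naive, 641, 438 and 313 CPM at day 12, and 854, 826, 758 and 825 CPM at day 28. In 9-month males it was at 682 and 471 CPM in naive, 306, 814, 489.8 and 625 CPM at day 12, and 596, 841 and 779 CPM at day 28. The day 12 males covered the naive range and overlapped day 28, and in females every day 28 library was above every day 12 library.

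In 18-month females Cd300c2 was at 641, 735 and 703 CPM in naive, 770.3, 719.6, 543 and 348 CPM at day 12, and 818, 729 and 1002 CPM at day 28. In 18-month males it was at 677, 668, 736 and 772 CPM in naive, 406, 436 and 483 CPM at day 12, and 938, 775, 905 and 639 CPM at day 28. In males every day 12 library was below every naive one, and in females 2 of 4 were.

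**Figure D4:**
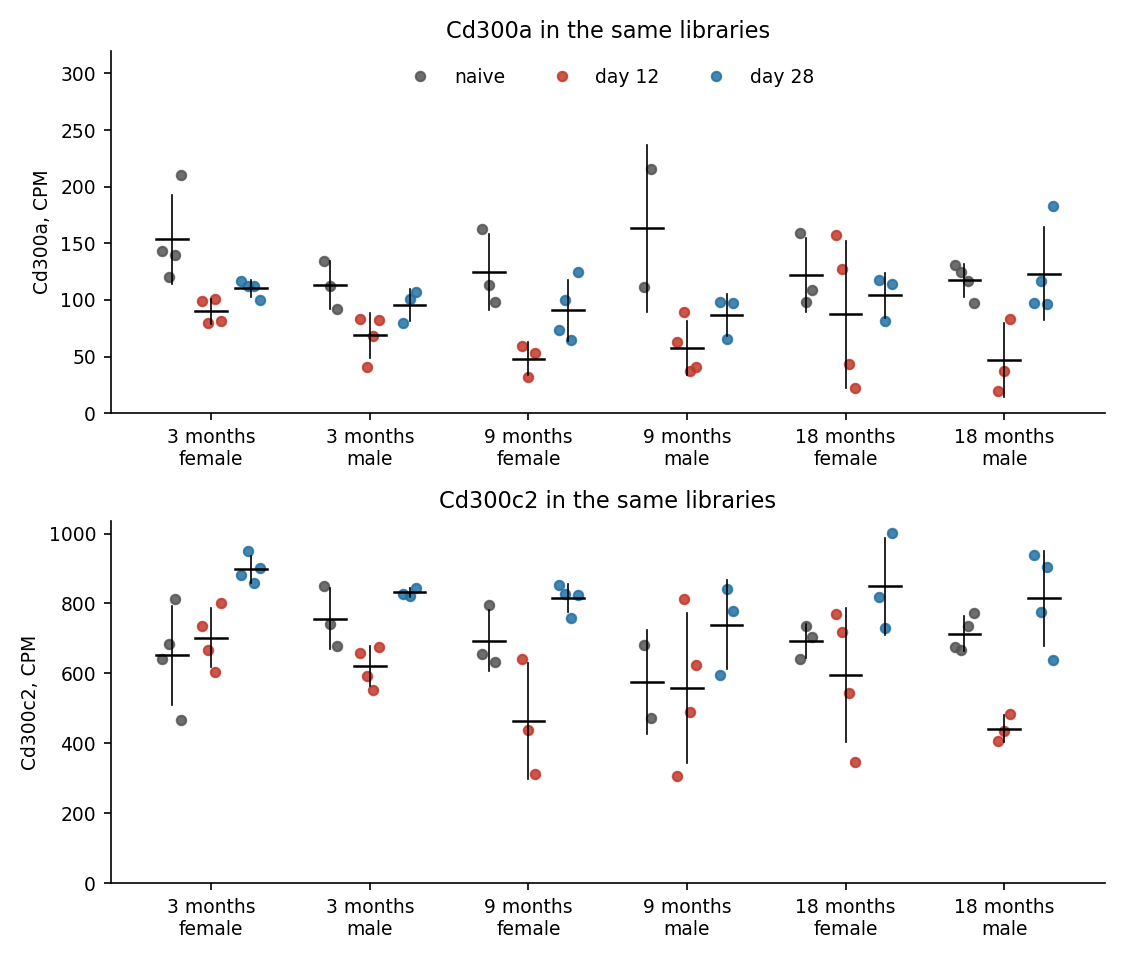
Cd300a (upper panel) and Cd300c2 (lower panel) in CPM, with a point per library, a horizontal bar at the group mean and a vertical bar of 1 SD, for naive (grey), day 12 (red) and day 28 (blue) libraries. By group mean Cd300a is lowest at day 12 and Cd300c2 highest at day 28, and the day 12 libraries of 18-month females overlap both other days in each panel.

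For Cd300c2 the average change from naive to day 12 was -0.18 ± 0.112 on the log2 scale (edgeR adjusted p = 0.215), and without 9m female day 12 replicate 1 it was -0.28 and past the threshold (adjusted p = 0.0286). From day 12 to day 28 it rose by 0.57 ± 0.109 (adjusted p = 8.65e-05), with 15 of 21 day 28 libraries above the highest day 12 library. The rise was 0.59 without the library with 2 day labels, and within the first collection day alone it was 0.33 with an adjusted p of 0.391. At day 28 the level relative to naive was 0.39 ± 0.114, or 0.42 without that library, as description.

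Cd300lb, an activating receptor that signals through Tyrobp, was near the limit of detection. It had at most 71 counts in a library, and it was at or under 3 counts in 6 of 19 naive, 13 of 22 day 12 and 10 of 21 day 28 libraries, 29 in all. Its range was 0 to 8.54 CPM in naive (median 1.68), 0 to 12.3 CPM at day 12 (median 0.849) and 0 to 15.9 CPM at day 28 (median 1.36). All 3 libraries of 18-month males at day 12 had 0 counts, while the 4 libraries of 18-month females at day 12 were at 12.3, 6.84, 1.89 and 2.46 CPM, against 0, 4.35 and 0.253 CPM in their naive group. The edgeR test called it lower at day 12 (adjusted p = 0.00754) and higher at day 28 than at day 12 (adjusted p = 0.0209). In 18-month females the means went the other way from the averaged call at day 12, from 1.54 ± 2.44 CPM (SD, n = 3) in naive to 5.87 ± 4.82 CPM (SD, n = 4). No fold is given because its size depends on how counts of 0 are handled. The day 12 call was lost without 18m female naive replicate 2, in uncorrected counts without a batch term, among females alone, in the first collection day alone and when the doubly labelled library was counted as day 12. The day 28 call was lost without 3m female day 28 replicate 3, without 3m male day 28 replicate 1, among males alone, and under each of the same alternatives other than the first.

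Cd300ld, an activating receptor expressed by several myeloid cells, had 0 to 122 counts per library. It ranged from 0 to 17.5 CPM in naive (median 4.19), 0 to 20.4 CPM at day 12 (median 4.73) and 0 to 10.05 CPM at day 28 (median 2.72), and the 3 days overlapped. The changes were 0.40 ± 0.446 on the log2 scale from naive to day 12 (edgeR adjusted p = 0.538) and -0.51 ± 0.431 from day 12 to day 28 (adjusted p = 0.475). Its highest group at day 12 was 9-month females at 12.4, 13.7 and 20.4 CPM. In 18-month females it was at 0, 1.36 and 0 CPM in naive and 7.48, 11.6, 8.35 and 4.1 CPM at day 12, without overlap, whereas in 3-month females it was at 17.5, 1.91, 5.75 and 7.84 CPM in naive and 0.785, 0, 3.02 and 0 CPM at day 12.

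Cd300e, a monocyte receptor in this family, was at 0 in 56 of the 62 libraries, with at most 8 counts in any, and every day 28 library was at 0. With so few counts no change was detectable at this depth. The other genes of the cluster were also low, though Cd300c was at 0 in only 24 and Cd300ld3 in 18 of the 62 libraries. Cd300c had 0 to 24 counts and Cd300ld3 had 0 to 17, and Cd300ld4 and Cd300ld5 were at 0 throughout. Cd300lg, a family gene outside the cluster that is known from endothelium, had at most 5 counts. Cd300ld3 was called lower at day 12 (adjusted p = 0.0128) and higher from day 12 to day 28 (adjusted p = 0.0287), on at most 17 counts and with most of its sequence shared with neighbouring copies.

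Age and sex moved no member past the threshold (edgeR, adjusted p under 0.1). Of the 5 members tested, 0 were called between 18 and 3 months in naive (0.11% of all genes called), at day 12 (1.97%) or at day 28 (0.0442%). In each, 1 member was under an unadjusted p of 0.05, as were 1010, 1827 and 631 of 13584 genes. Between 9 and 3 months 0 were called in naive (0% of genes), at day 12 (1.65%) or at day 28 (0%). Under an unadjusted p of 0.05 were 0, 4 and 0 members, and 675, 1721 and 479 of 13584 genes. Between males and females 0 were called in naive (0.081%), at day 12 (0.0589%) or at day 28 (0.0589%). Here 0, 1 and 0 members were under an unadjusted p of 0.05, and 1058, 813 and 526 of 13584 genes. DESeq2 likewise called 0 members in each of these 9 comparisons.

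For the change itself from naive to day 12, 0 members differed between the sexes (0% of genes called, and 0 members by DESeq2). There 1 member was under an unadjusted p of 0.05, as were 791 of 13584 genes. Between 18 and 3 months 0 members differed (0.155% of genes called). In that comparison 1 member was under an unadjusted p of 0.05, as were 1497 of 13584 genes. That member was Cd300ld, whose day 12 change was 3.86 larger at 18 months on the log2 scale (edgeR adjusted p = 0.132), and which DESeq2 called (3.96, adjusted p = 0.0362). In this comparison DESeq2 called 221 of 9897 genes, against 21 of 13584 by edgeR. Leaving out 18m female naive replicate 2 also brought a call of Cd300ld. At day 12, leaving out 9m female day 12 replicate 1 called Cd300a and Cd300c2 lower at 9 than at 3 months, and leaving out 9m male day 12 replicate 2 called Cd300a lower. The shares of all genes called in these left-out fits are not given here.

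Some day 12 libraries were picked out after their values were seen. The 2 lowest libraries for Cd300lf, 18m female day 12 replicates 2 and 1 at 53.6 and 95.1 CPM, held the 2 highest levels of Cd300a (127 and 157 CPM) and the 2 highest of Cd300lb (6.84 and 12.3 CPM). They also had a summed microglial marker level of 32321 and 38475 CPM, against a day 12 median of 15333. The highest libraries for Cd300lf, at 331 and 309.7 CPM, ranked 14 and 12 of 22 for Cd300a, so the other end of the order was not inverse. The other 18-month females at day 12 had 251 and 164 CPM of Cd300lf with 43.1 and 22.4 CPM of Cd300a. These were from the second collection day, and replicates 2 and 1 were from the first. Over the 18 group means Cd300a and Cd300lf had a Pearson r of -0.73 on the log2 CPM scale, Cd300a and Cd300c2 of 0.65, and Cd300c2 and Cd300lf of -0.19. These are descriptions over groups that share their days and batch correction.

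**Figure D5:**
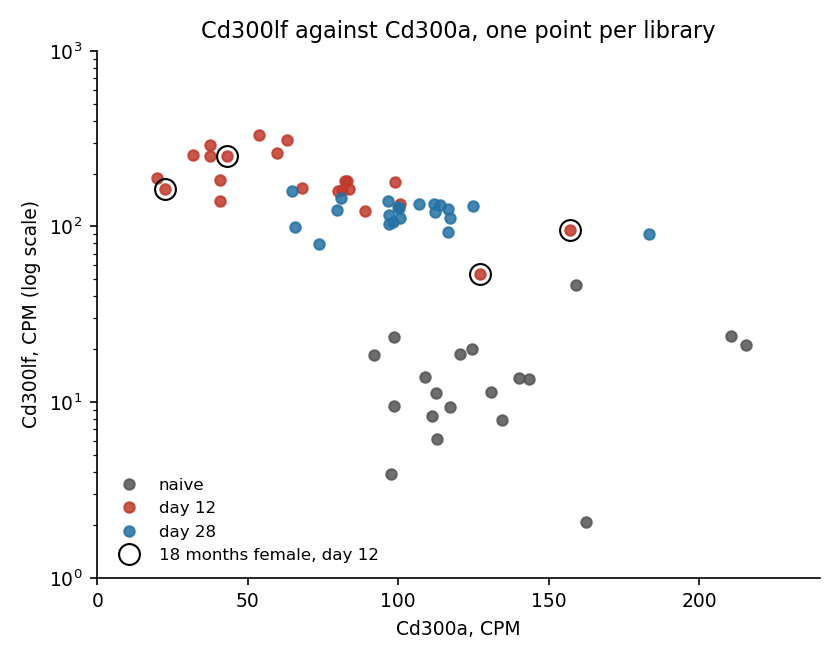
Cd300lf in CPM on a log axis against Cd300a in CPM, with a point per library in naive (grey), day 12 (red) and day 28 (blue), and circles around the 4 libraries of 18-month females at day 12. Of these 4, 2 lie at 127 and 157 CPM of Cd300a, nearer to the naive libraries than the other day 12 libraries do.

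Both collection days gave the same direction for the 3 well-measured members. As the mean over the 6 sexes and ages of differences in log2(CPM + 1) within a collection day, Cd300lf at day 12 was 3.78 above naive on the first day and 3.84 on the second, higher in 6 of 6 each time. Cd300a was at -1.10 and -1.27, with 0 of 6 higher each time, and Cd300c2 was at -0.22 and -0.31, with 2 of 6 higher each time. In the uncorrected counts these differences for Cd300lf were 3.65 and 3.97. Both libraries at odds with their sex labels had Cd300lf above the highest naive library in uncorrected counts, at 164 and 257 CPM against 55.5 CPM.

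The genes whose group means followed those of Cd300lf most closely were C4b and C3 of the complement system, the nucleotide-sugar receptor P2ry14, the early activation marker Cd69 and F630111L10Rik. Their Pearson r over the 18 group means of log2 CPM was 0.967 to 0.981. C4b went from a median of 7.17 CPM in naive to 254 at day 12 and 162 at day 28, and C3 went from 0.229 to 148 and 57.7 CPM. For Cd300a they were Abca9, the kinase Sgk1, the MAP kinase phosphatase Dusp6, the retinal reductase Dhrs3 and Rasgrp3 (r 0.945 to 0.974), with Abca9 at medians of 239, 48.3 and 141 CPM. For Cd300c2 they were Vkorc1, the interferon receptor chain Ifnar2, Ang, Iscu and Ifi27 (r 0.885 to 0.960), with Vkorc1 at medians of 255, 159 and 310 CPM. Nothing about shared function or control follows from such likeness, and the points share their groups.

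The adaptors, kinases and phosphatases that CD300 receptors use were mixed. Of 10 listed partners, 2 were higher, 1 was lower and 7 were not called at day 12, against 20.2% higher and 15.8% lower of all genes, with a median log2 change of 0.13 against 0.02 for all genes tested. Grb2 (0.61 ± 0.0911) and the adaptor Fcer1g (0.70 ± 0.152) rose, and the lipid phosphatase Inpp5d fell by 0.40 ± 0.104. The phosphatase Ptpn6 was at 0.30 ± 0.127 (adjusted p = 0.0611). From day 12 to day 28, 3 partners rose, among them Inpp5d (0.32), and 3 fell, among them Grb2 (-0.62) and Ptpn6 (-0.37), against 7.92% and 10.3% of all genes. Tyrobp and Hcst, the adaptors of the short-tailed members, were picked out after their values were seen. They were at 0.10 (adjusted p = 0.648) and -0.08 (adjusted p = 0.756) at day 12, and rose by 0.55 and 0.61 from day 12 to day 28.

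Other receptors and bridges for dying cells were mixed. Of 13 listed genes, 11 were tested, of which 2 rose and 4 fell at day 12, against the same 20.2% and 15.8% of all genes, with a median log2 change of -0.23. Axl, a kinase that recognises phosphatidylserine through Gas6, rose by 2.25 ± 0.163 and the scavenger receptor Cd36 by 3.55 ± 0.438. The integrin subunit Itgb3 fell by 2.36 ± 0.247 and Mfge8, a bridge from phosphatidylserine to integrins, fell by 1.69 ± 0.238. From day 12 to day 28, 2 of the 11 rose and 4 fell.

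Microglial markers moved with these changes. All 10 listed markers fell at day 12 (median log2 change -1.36) and 8 of 10 rose from day 12 to day 28, among them P2ry12, which fell by 2.38 ± 0.182 and then rose by 1.28 ± 0.173. Their summed level was 33994 to 60284 CPM in naive, 9394 to 38475 at day 12 and 17163 to 46560 at day 28. The part of this in the levels of Cd300lf or Cd300a was not tested.

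Markers of other cells also moved, in a design where a washout period of weeks between tamoxifen and use was meant to make the label more specific to microglia. Of the 7 monocyte markers, 6 were tested and 4 rose at day 12, among them Ly6c2 and Plac8, while F13a1 fell. Their summed level ranged from 4.55 to 139 CPM in naive, 5.95 to 959 at day 12 and 1.12 to 57.9 at day 28, and 4 of the 6 fell from day 12 to day 28. The median sum was 32.9 CPM in naive, 63.3 CPM at day 12 and 7.78 CPM at day 28. Within it F13a1 went from a median of 20.1 CPM in naive to 0.239 CPM at day 28 and Ly6c2 from 0 to 0.447 CPM. Chil3 was at 0 in every naive and day 28 library. Of the 5 border macrophage markers, 3 fell at day 12, Pf4, Mrc1 and Cd163, and Ms4a7 rose, with sums of 71.9 to 724, 57.8 to 427 and 62.7 to 437 CPM. The 5 neutrophil markers summed to at most 33.5, 5.79 and 19.3 CPM, Ly6g was at 0 in every naive and day 12 library, and the 1 gene tested, S100a8, was at 1.15 ± 0.794 (adjusted p = 0.278). The naive library highest for Cd300lf, 18m female naive replicate 1 at 46.2 CPM, had the highest neutrophil sum of naive libraries (33.5 CPM), the highest dendritic cell sum (40.5 CPM) and the 2nd highest monocyte sum (125 CPM). Its neutrophil sum was nearly all S100a8, whose highest naive value was 32.2 CPM, and S100a9 was at 0 in every naive library. It ranked 4 of 19 for the T cell sum and 7 of 19 for the border macrophage sum. The day 28 library highest for Cd300lf, 9m female day 28 replicate 3 at 159 CPM, had the highest monocyte (57.9 CPM) and T cell (171 CPM) sums of its day. That library ranked 13 of 21 for dendritic cells and 15 of 21 for border macrophages, and its neutrophil sum was 0. The day 12 library highest for Cd300lf, 9m female day 12 replicate 3 at 331 CPM, ranked 11 of 22 for the monocyte sum. For dendritic cells it ranked 2 of 22 (15.8 CPM) and for neutrophils 6 (1.07 CPM), and it ranked 14 for T cells and 21 for border macrophages. The part of these cells in the members' levels was not tested.

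The remaining lists gave the following. The 6 T cell markers all rose at day 12, from sums of 0 to 161 CPM in naive to 0 to 348 at day 12, and were at 10.8 to 171 CPM at day 28, where 2 of 6 fell from day 12. Dendritic cell markers summed to 1.99 to 40.5, 2.52 to 16.1 and 2.16 to 17.3 CPM, and 1 of 5 was called at day 12, Flt3, which fell. B cell markers summed to 6.1 to 120.0, 18.2 to 86.4 and 30.7 to 94.1 CPM, with 1 of 3 tested called, Cd79b, which fell. The 5 photoreceptor genes all fell at day 12 (median log2 change -0.91), and 4 rose from day 12 to day 28, with sums of 523 to 3045, 365 to 2494 and 617 to 2258 CPM. Their part in the members' levels was not tested either.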

How the data were processed

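Libraries of 600 sorted microglia were made with SMART-seq v4, which does not keep strand, and 16 PCR cycles. The deposited values are read counts per gene. According to the labels and methods, the authors used bcl2fastq 2.20, STAR 2.7.8a on mm10, featureCounts with UCSC refGene, and ComBat_seq in R 4.2.2 to remove the 2 days of collection. The corrected counts were used, and the uncorrected ones as an alternative. ComBat_seq changes low counts most, so Cd300lb, Cd300ld and Cd300e are the least certain.

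The members and gene lists were chosen with earlier results of these data known. Counts were fitted with edgeR 4.0.16 in R 4.3.3 (TMM, filterByExpr, quasi-likelihood, Benjamini-Hochberg adjustment over all genes tested). A fit of 18 group means in 62 libraries gave the averaged, age, sex and interaction contrasts, called at an adjusted p under 0.05 for days and 0.1 for ages and sexes. Each sex and age was also fitted apart with glmTreat against a log2 change of 1, called at 0.05. CPM were computed with numpy 2.4.6 and pandas 2.3.3, and exon lengths came from GENCODE, not the annotation behind the counts. No columns were left unmapped, and 0 of 79 pairs within groups held identical values.

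The text names all members, the other genes called Cd300, at most 4 genes per list with the smallest p at day 12, and, for each member with a median of at least 10 CPM, the 5 genes of highest correlation over group means (prior count 2). The lists were signalling partners, recognition of dying cells, microglia, monocytes, neutrophils, border macrophages, dendritic cells, T cells, B cells and photoreceptors. Nothing in the labels says that a replicate number marks a shared animal or day, and over 54 same-numbered pairs the correlation of deviations averaged -0.034 (-0.267 to 0.114), so numbers were not used as a block. Alternatives were DESeq2 1.42.0, its size factors, no filter, uncorrected counts (collection day as a term, or no such term), a replicate block, each library left out, both uncertain libraries moved or kept, collection days and sexes alone, and glmTreat. P-values measure the spread between single retinas. The model code was tested on simulated data.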

Additional observations from a re-analysis of the deposited data

Results flagged for a closer look

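Some values stood apart. Over all 6 members and the groups of 4 libraries, leaving out sets with every library at or under 3 counts, 45 sets of values were searched for a library far from the rest, of which chance flags about 1 in 20, and 3 were found, all at low counts. Cd300e was at 2.61 CPM in 9m male day 12 replicate 1 and at 0 in the other libraries of that group. Cd300lb was at 1.57 CPM in 3m female day 12 replicate 1, the others being at 0, and at 6.99 CPM in 3m female day 28 replicate 3, the others being at 0 to 0.379 CPM.

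Both libraries whose sex-linked genes went against their labels entered no comparison of the report, and the library labelled 18m female day 28 replicate 1 was kept in only as an alternative. In uncorrected counts Cd300lf was at 164 CPM in the library labelled 9m male day 28 replicate 1 and at 257 CPM in the library labelled 18m female day 28 replicate 1, above the naive libraries at 2.46 to 55.5 CPM.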

How the results depend on the processing

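Of 2062 values recomputed under alternatives, 0 changed direction and 2009 counted as the same. For a fold change this meant the same sign and the same side of the threshold, whatever its size. For a count of called members it meant an equal or near count, so the loss of 1 of 3 also counted as the same. For a correlated gene it meant a place among the 5 highest. Cd300lf at day 12, averaged over sex and age, ran from 3.81 to 4.12 on the log2 scale and stayed past the threshold in all 76 alternatives. Against a 2-fold change (glmTreat) the members called went from 3 to 1 at day 12 and from 4 to 0 between day 28 and day 12, while the genes called went from 4890 to 1021 and from 2474 to 228. Between day 28 and day 12, 1 member was called in the first collection day alone (456 genes) and 1 among females alone (556 genes), both with fewer libraries. The first collection day also moved the median log2 change of all genes at day 12 to 0.34 and the share of higher calls from 56.0% to 77.8%.

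Without a filter on low counts, 1 member was called between 18 and 3 months in naive, 2 between 9 and 3 months at day 12, and 1 for the age difference in the day 12 change, where 167, 612 and 396 of 20135 genes were called against 15, 224 and 21 of 13584. DESeq2 also called 1 member for that age difference, where it called 221 of 9897 genes. Among females alone 1 member was called between 9 and 3 months at day 12. By sex and age, the quasi-likelihood test without the 2-fold limit called 3 members in 3-month females (1510 of 11124 genes), 2 in 9-month females (987 of 11273) and 3 in 18-month males (1514 of 11397), and with all libraries in one fit 1 was called in 18-month females. The cause of these was not tested. For the calls by sex and age among females alone, with all libraries in one fit or with a library left out, the share of all genes is not given here. Such calls do not single out a member.

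Leaving out single libraries gave 0 to 2 members between 9 and 3 months at day 12, the highest without 9m female day 12 replicate 1, and 0 to 1 for the age difference in the day 12 change, with 1 without 18m female naive replicate 2. In 9-month males it gave 0 to 1, with 0 without 9m male naive replicate 1. With the replicate block the Cd300lf change at day 12 was 3.91, the members called stayed at 3 and 4 in the averaged contrasts, and no call of a member changed. Each group held 2 to 4 libraries, and counts of Cd300lb, Cd300ld and Cd300e near 0 limit what could be seen of them.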
